A study of Mus musculus with 11 samples.

Results

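The clock output transcription factors Dbp, Tef, Hlf, Nfil3, Ciart, Bhlhe40 and Bhlhe41 were followed through the pancreas and the epididymal adipose tissue of control mice and of mice with obesity-related alcohol-induced acute pancreatitis (OA-AP). The 7 genes were taken by symbol from the count tables, in which they are 7 of 54532 pancreas genes and 7 of 46078 adipose genes. They were chosen with their OA-AP changes known, so their values in OA-AP against control mice are given as a description without p-values. RNA-seq counts came from 11 libraries, 2 of control pancreas, 3 of OA-AP pancreas, and 3 of each condition in adipose tissue. All mice were wild-type male C57BL/6J (C57BL/6 in the labels) and 16 weeks old. Control mice ate a chow diet with 10 kcal% fat for 12 weeks and then received 2 intraperitoneal saline injections 1 h apart. OA-AP mice ate a high-fat diet with 60 kcal% fat for 12 weeks and then received 2 intraperitoneal injections of ethanol at 2 g/kg, 1 h apart. Tissue was taken 12 h after the first injection in both groups. Diet, ethanol and pancreatitis thus differed together between the groups and cannot be told apart. The clock hour of collection, to which all of these transcripts are sensitive, is not given in the sources used here. The labels number the samples without saying that each is a separate mouse, so p-values measure the spread between these samples.

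The circadian clock is a transcriptional loop in which CLOCK and BMAL1 (the product of Arntl) activate genes through E-box elements, and the PER and CRY proteins built from those genes shut them down again. The PAR bZIP proteins DBP, TEF and HLF are output activators that bind D-box elements, many of them in genes of detoxification and metabolism. NFIL3, also called E4BP4, is a bZIP repressor that competes for the same D-box elements. CIART, also called CHRONO, binds BMAL1 and represses E-box transcription, and DEC1 and DEC2, the bHLH products of Bhlhe40 and Bhlhe41, compete for E-boxes with CLOCK and BMAL1. Pancreas and adipose tissue both run such clocks, and bulk RNA averages over all of their cells.

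The promoters of the genes show which clock elements lie next to the transcription starts. RefSeq start sites on GRCm38.p6 were matched for 6 of the 7 genes, all but Bhlhe40, with 2 starts for Tef, and each window holds 250 bases before and 50 bases after the start. The windows were searched on both strands for the E-box CACGTG, its variant CACGTT, the D-box letters TTANGTAA, the ROR element TAGGTCA and the cyclic AMP element TGACGTCA, none of which overlaps another in these windows. Windows of Dbp, Tef, Ciart, Bhlhe41 and Nfil3 are shown because they belong to the member with the largest change, to the members with an E-box and to the member that was higher in both tissues. Each is printed 5′ to 3′ on the strand of the gene, for Dbp chr7:45704997-45705296 (plus), for the second start of Tef chr15:81811164-81811463 (plus), for Ciart chr3:95882179-95882478 (minus), for Bhlhe41 chr6:145865371-145865670 (minus) and for Nfil3 chr13:52980990-52981289 (minus). Capitals mark the E-box CACGTG in Tef, Ciart and Bhlhe41, and in Nfil3 the letters TGACCTA, which read TAGGTCA on the other strand.
Dbp: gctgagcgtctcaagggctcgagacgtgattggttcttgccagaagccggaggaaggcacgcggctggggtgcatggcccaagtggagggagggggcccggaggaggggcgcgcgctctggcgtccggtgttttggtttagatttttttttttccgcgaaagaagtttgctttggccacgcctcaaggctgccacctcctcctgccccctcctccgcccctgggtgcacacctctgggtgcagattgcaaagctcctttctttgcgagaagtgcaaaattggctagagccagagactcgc
Tef: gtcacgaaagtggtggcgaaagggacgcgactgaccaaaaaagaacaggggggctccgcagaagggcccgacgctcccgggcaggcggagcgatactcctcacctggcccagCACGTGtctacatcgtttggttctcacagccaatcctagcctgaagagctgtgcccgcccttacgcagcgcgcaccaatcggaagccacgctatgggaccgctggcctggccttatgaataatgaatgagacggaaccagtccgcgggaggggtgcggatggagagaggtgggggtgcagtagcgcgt
Ciart: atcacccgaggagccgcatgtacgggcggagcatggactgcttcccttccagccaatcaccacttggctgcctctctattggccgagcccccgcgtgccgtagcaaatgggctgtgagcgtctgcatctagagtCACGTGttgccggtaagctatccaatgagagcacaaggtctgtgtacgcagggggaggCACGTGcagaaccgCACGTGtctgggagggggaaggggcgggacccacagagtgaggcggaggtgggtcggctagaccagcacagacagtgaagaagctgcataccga
Bhlhe41: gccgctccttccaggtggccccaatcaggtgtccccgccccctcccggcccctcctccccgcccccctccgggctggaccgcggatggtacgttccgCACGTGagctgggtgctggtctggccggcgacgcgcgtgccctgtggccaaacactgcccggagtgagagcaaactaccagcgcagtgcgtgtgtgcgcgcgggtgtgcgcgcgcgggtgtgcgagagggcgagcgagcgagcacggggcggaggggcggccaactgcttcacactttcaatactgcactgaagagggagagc
Nfil3: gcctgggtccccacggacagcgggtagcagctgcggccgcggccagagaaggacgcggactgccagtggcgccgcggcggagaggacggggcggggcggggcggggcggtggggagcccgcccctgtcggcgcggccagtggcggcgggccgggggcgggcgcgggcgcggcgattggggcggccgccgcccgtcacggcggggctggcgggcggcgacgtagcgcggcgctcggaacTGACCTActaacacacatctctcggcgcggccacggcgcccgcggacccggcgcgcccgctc

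Ciart held 3 E-boxes, beginning 116, 58 and 44 bases before the start, and 0.0883% of all 32851 promoters held 3 or more. Bhlhe41 held 1 E-box, 153 bases before its start. Tef held 1 at each start, 127 bases before the first and 138 bases before the second. Of all promoters, 7.15% held at least 1 such E-box. Nfil3 held the ROR element 12 bases before its start, against 2.61% of all promoters, and Hlf held the cyclic AMP element 9 bases before its start, against 1.79%. None of the 5 sets of letters was found in the Dbp window, and the D-box letters, in 2.32% of all promoters, were found in no member window. These matches describe letters only and are no measure of binding. Sequence outside the windows, further away or within the genes, was not searched, so a window without a match does not mean a gene without the element.

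The libraries held 14188832 to 17238919 counts in the pancreas and 20825177 to 27928097 in adipose tissue. The pancreas was marked by acinar genes, which held 80.6% and 82.3% of control counts and 64.8% to 67.6% of OA-AP counts, and adipose tissue by adipocyte genes, whose 9 members were all detected. Control adipose replicate 2 stood apart with 1.16% acinar counts, against 0.0277% to 0.0822% in the other adipose libraries. The 4 mesothelial genes summed to 8.97 to 17.6 CPM in control and 0.575 to 8.12 CPM in OA-AP pancreas, with 0 called by edgeR. The 6 ductal genes summed to 185 to 189 CPM in control and 84.1 to 98.5 CPM in OA-AP pancreas, with 2 of 5 tested called lower. The 6 islet genes summed to 932 to 1156 and 1275 to 1558 CPM, with 1 of 6 called higher. The part of acinar, ductal, islet and mesothelial RNA in the member values was not tested. In bulk tissue, fewer cells of a type and less RNA per cell cannot be told apart. Levels are given below as CPM, library-size-normalised counts scaled by TMM factors within each tissue. A gene is called where its adjusted p in edgeR's quasi-likelihood test is under 0.05 and its fold change at least 1.5.

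In the pancreas all 3 PAR bZIP activators were lower in OA-AP mice, and the drop was steepest for Dbp. Dbp (ENSMUSG00000059824, chromosome 7 of GRCm38, 45705088 to 45710203, plus strand) was at 34.7 and 61.7 CPM in the control libraries and at 0.368, 1.60 and 0.209 CPM in the OA-AP libraries. The OA-AP values rest on 7, 28 and 4 counts, and the groups did not overlap. The log2 fold change of Dbp was −6.07 ± 0.64 (SE), a level 67.3-fold lower. Without OA-AP replicate 2, the highest of the OA-AP libraries, it was −7.34.

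Tef (ENSMUSG00000022389, chromosome 15, 81802421 to 81826863, plus strand) was at 49.7 and 70.2 CPM in control pancreas and at 7.61, 18.5 and 5.75 CPM in OA-AP pancreas. Both control values lay above all 3 OA-AP values, with a log2 fold change of −2.50 ± 0.50 (SE), a call lost without OA-AP replicate 3, without either control and without a filter. Without OA-AP replicate 2 the log2 fold change of Tef was −3.16. Hlf (ENSMUSG00000003949, chromosome 11, 90336536 to 90390895, minus strand) was scarce in the pancreas, at 0.944 and 1.70 CPM in the controls and 0.368, 0.515 and 0.209 CPM in OA-AP mice. These values stand for 11 and 17 counts against 7, 9 and 4, and the groups did not overlap. The log2 fold change of Hlf was −1.83 ± 0.58 (SE), and its call was lost under 6 of 11 alternative settings.

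The D-box repressor Nfil3 moved the other way. Nfil3 (ENSMUSG00000056749, chromosome 13, 52967209 to 52981073, minus strand) was at 0.686 and 0.997 CPM in control pancreas, from 8 and 10 counts, and at 9.71, 4.86 and 23.6 CPM in OA-AP pancreas. Every OA-AP value was above both controls, but the OA-AP libraries differed among themselves by 4.85-fold. The log2 fold change was 3.92 ± 0.91 (SE). The summed level of 10 neutrophil genes in the OA-AP libraries was 13.8, 3.60 and 103 CPM, against 1.20 and 1.99 CPM in the controls, so that replicate 3 was highest and replicate 2 lowest for both neutrophil genes and Nfil3. The 7 macrophage genes were also highest in replicate 3, at 50.4, 50.7 and 107 CPM in the OA-AP libraries, against 57.9 and 27.8 CPM in the controls. Ly6g, Mpo, Elane and Retnlg, which mark neutrophils, were at 0 in both control libraries. Of the 7 neutrophil genes tested in the pancreas 0 were called by edgeR, 1 had an unadjusted p under 0.05, and DESeq2 called 6 higher. The part of neutrophils and macrophages in the Nfil3 value was not tested. Without OA-AP replicate 3 the log2 fold change of Nfil3 was 3.07 and still called, and the call was lost without a filter or without either control.

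Among the E-box repressors, Ciart and Bhlhe41 were lower and Bhlhe40 was higher in OA-AP pancreas. Ciart (ENSMUSG00000038550, chromosome 3, 95878503 to 95882251, minus strand), the gene with 3 E-boxes in its promoter, was at 3.0 and 5.68 CPM in the controls and 0.998, 1.43 and 0.471 CPM in OA-AP mice. The groups were apart, with a log2 fold change of −2.16 ± 0.49 (SE), a call lost without control replicate 2, where the change was −1.63. Bhlhe41 (ENSMUSG00000030256, chromosome 6, 145858243 to 145865558, minus strand) was at 2.92 and 5.78 CPM against 1.10, 1.83 and 1.20 CPM. The groups did not overlap, and the log2 fold change was −1.65 ± 0.41 (SE), a call lost without OA-AP replicate 1 and without control replicate 2. Bhlhe40 (ENSMUSG00000030103, chromosome 6, 108660629 to 108666925, plus strand) was at 6.52 and 7.28 CPM in the controls and at 13.1, 14.6 and 22.1 CPM in OA-AP mice. All OA-AP values of Bhlhe40 were above both controls, and the log2 fold change was 1.27 ± 0.26 (SE), a call lost without either control. It was 1.19 without control replicate 1 and 1.35 without control replicate 2.

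All 7 members passed the filter on low counts in the pancreas, and all 7 were called, 2 higher and 5 lower. Of the 12884 pancreas genes tested, 29.8% were called, 16.2% higher and 13.5% lower, and 62.3% had groups that did not overlap. Since the genes were chosen by these changes, nothing is read from their count. The median log2 fold change was −1.83 over the members and 0.04 over all genes tested. With only 2 controls the calls leaned on each of them. Leaving out either of them leaves a group of 1 library, where fewer genes were called, both among the members and among all genes tested. The log2 fold change of Dbp was −6.42 without control replicate 1 and −5.59 without control replicate 2. Under the filter of 10 counts in every library only Tef, Bhlhe40 and Bhlhe41 were tested, and all 3 were called. When acinar genes were kept out of the TMM factors, 7 were called. With library totals in place of TMM factors the log2 fold changes of Hlf and Bhlhe41 were −1.11 and −0.92 and neither was called, while the median over all genes moved to 0.75 and 92.0% of calls were higher, against 54.5% with TMM.

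**Figure D1:**
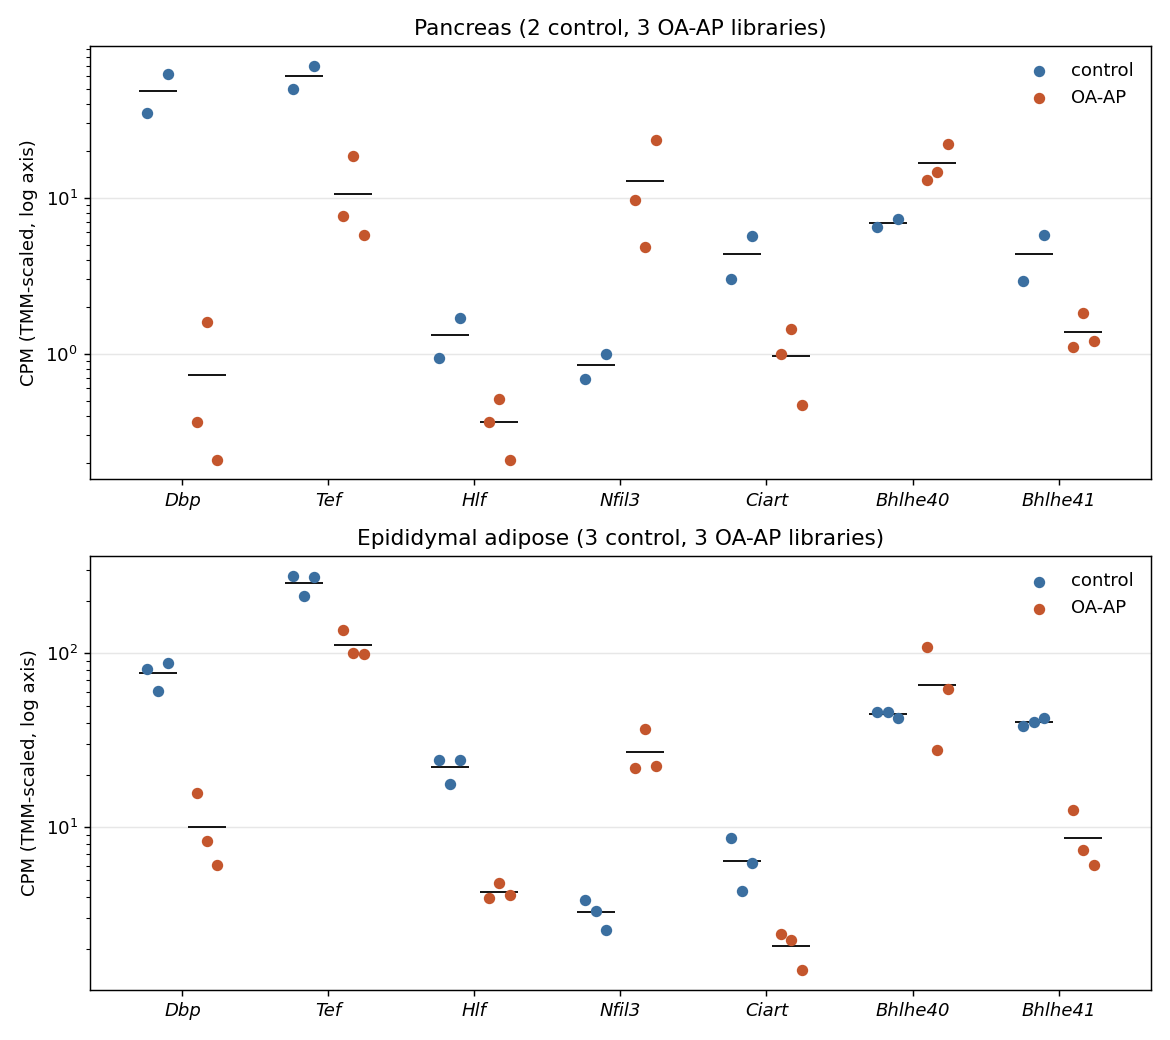
TMM-scaled CPM (log axis) of the 7 genes in every library of pancreas (top) and epididymal adipose tissue (bottom); points are libraries, blue for control and orange for OA-AP, and black bars are group means. The groups are apart for every gene in the pancreas, and in adipose tissue they overlap only for Bhlhe40, whose OA-AP libraries run from 27.9 to 108 CPM.

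In adipose tissue the same 3 activators were lower and Nfil3 was higher. Dbp was at 81.1, 61.1 and 87.8 CPM in the controls and at 15.8, 8.32 and 6.11 CPM in OA-AP mice. The lowest control was above the highest OA-AP library, and the log2 fold change was −2.93 ± 0.35 (SE). Tef, the most abundant member, was at 279, 214 and 274 CPM in the controls and at 136, 100.1 and 98.5 CPM in OA-AP mice. Its groups did not overlap, and its log2 fold change of −1.20 ± 0.17 (SE) was the smallest among the called members of this tissue. Hlf was at 24.5, 17.7 and 24.4 CPM against 3.94, 4.76 and 4.09 CPM. The 3 OA-AP values of Hlf lay within 1.21-fold of each other, below every control, with a log2 fold change of −2.38 ± 0.17 (SE).

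Nfil3 was at 3.84, 3.30 and 2.59 CPM in control adipose tissue and at 22.0, 36.8 and 22.5 CPM in OA-AP adipose tissue. Every OA-AP library was above every control, and the log2 fold change was 3.06 ± 0.26 (SE). The 10 neutrophil genes summed to 9.82 to 16.1 CPM in the controls and to 184, 180 and 199 CPM in OA-AP mice. Unlike in the pancreas, the OA-AP library with the highest Nfil3, replicate 2, held the lowest neutrophil sum, although the OA-AP sums lay close together. Of the 7 tested, 6 were called higher and 1 lower by edgeR, and none of the 10 was at 0 in all libraries of either group. The 7 macrophage genes summed to 746 to 907 CPM in the controls and 1023 to 1394 CPM in OA-AP mice, and the 9 adipocyte genes to 47830 to 50788 and 36641 to 42865 CPM. The 8 lymphocyte genes summed to 10.7 to 45.1 CPM in the controls, highest in replicate 2, and to 2.38 to 4.80 CPM in OA-AP mice. The 5 fibroblast genes summed to 3215 to 4096 CPM in the controls and 1909 to 2342 CPM in OA-AP mice, with 4 called lower by edgeR, and the 4 mesothelial genes to 221 to 584 and 123 to 331 CPM, all with a negative log2 fold change. The part of these cells in the member values was not tested.

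Ciart was at 8.64, 4.32 and 6.26 CPM in control adipose tissue and at 2.44, 2.26 and 1.52 CPM in OA-AP tissue. Its groups did not overlap, with a log2 fold change of −1.63 ± 0.31 (SE). Bhlhe41 was at 38.2, 40.1 and 42.6 CPM against 12.6, 7.45 and 6.06 CPM. The controls of Bhlhe41 were close together and all above the OA-AP libraries, and the log2 fold change was −2.21 ± 0.26 (SE). Bhlhe40 was at 46.1, 45.9 and 42.6 CPM in the controls and at 108, 27.9 and 62.2 CPM in OA-AP mice. OA-AP replicates 1 and 3 were above the controls and replicate 2 below them, so that the log2 fold change of 0.56 ± 0.43 (SE) was not called. The value rested on single libraries, as it was 0.014 without OA-AP replicate 1, the highest, and 0.93 and called without OA-AP replicate 2.

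All 7 members passed the filter in adipose tissue, and 6 were called, 1 higher and 5 lower. Of the 15839 genes tested there, 25.1% were called, 12.1% higher and 13.0% lower, and 52.4% had groups that did not overlap, as 6 of the members did. The median log2 fold change was −1.63 over the members and −0.01 over all genes. The 6 calls held under each of the 13 alternative settings run for single genes. Control replicate 2, the library with acinar counts, was the lowest control for Dbp, Tef, Hlf and Ciart. Without it the log2 fold changes were −3.06 for Dbp, −1.30 for Tef, −2.51 for Hlf and −1.84 for Ciart.

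**Figure D2:**
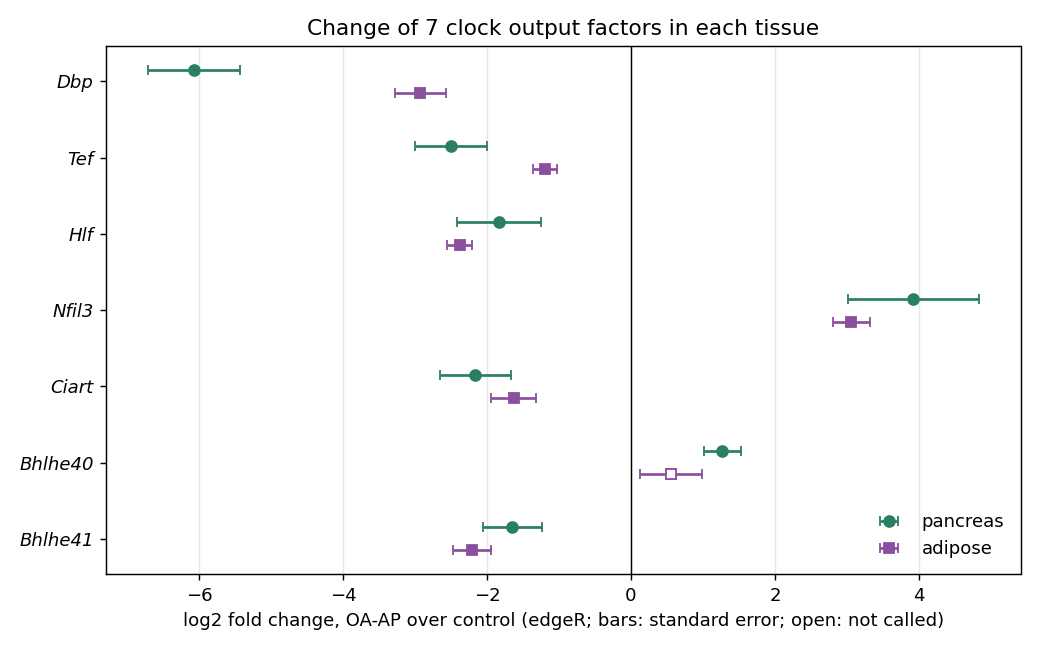
Log2 fold change of OA-AP over control for the 7 genes, with standard errors as bars; circles are pancreas, squares adipose tissue, and an open symbol marks a gene that was not called. Dbp lies at −6.07 in the pancreas and −2.93 in adipose tissue, and Nfil3 lies above 3 in both.

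Because the D-box activators and their repressor are read in the same library, their ratio does not depend on how libraries are scaled. Per base of gene length, Dbp exceeded Nfil3 by 34.2 and 41.9 times in the control pancreas libraries. In the OA-AP pancreas libraries the ratio was 0.0256, 0.223 and 0.00600. Every control library thus held more Dbp than Nfil3 and every OA-AP library less.

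In adipose tissue the ratio of Dbp to Nfil3 was 14.3, 12.5 and 23 in the controls and 0.487, 0.153 and 0.184 in OA-AP mice, again on opposite sides of 1. The ratio of Tef to Nfil3 ran from 18.1 to 18.6 in control pancreas and from 0.0628 to 0.982 in OA-AP pancreas. In adipose tissue it ran from 16.6 to 27.3 in the controls and from 0.700 to 1.59 in OA-AP mice. The ratio of Hlf to Nfil3 was below 1 in control pancreas already, at 0.417 and 0.516, and at 0.00269 to 0.0321 in OA-AP pancreas. In adipose tissue the Hlf ratio was 1.63 to 2.86 in the controls and 0.0392 to 0.0552 in OA-AP mice. The sum of the 3 activators over Nfil3 was 53.2 and 60.5 in control pancreas and 0.239, 1.24 and 0.0715 in OA-AP pancreas. In adipose tissue that sum was 30.8 to 53.1 times Nfil3 in the controls and 0.892 to 2.13 times in OA-AP mice. These ratios rest on the contrast by which the genes were chosen and carry no test.

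**Figure D3:**
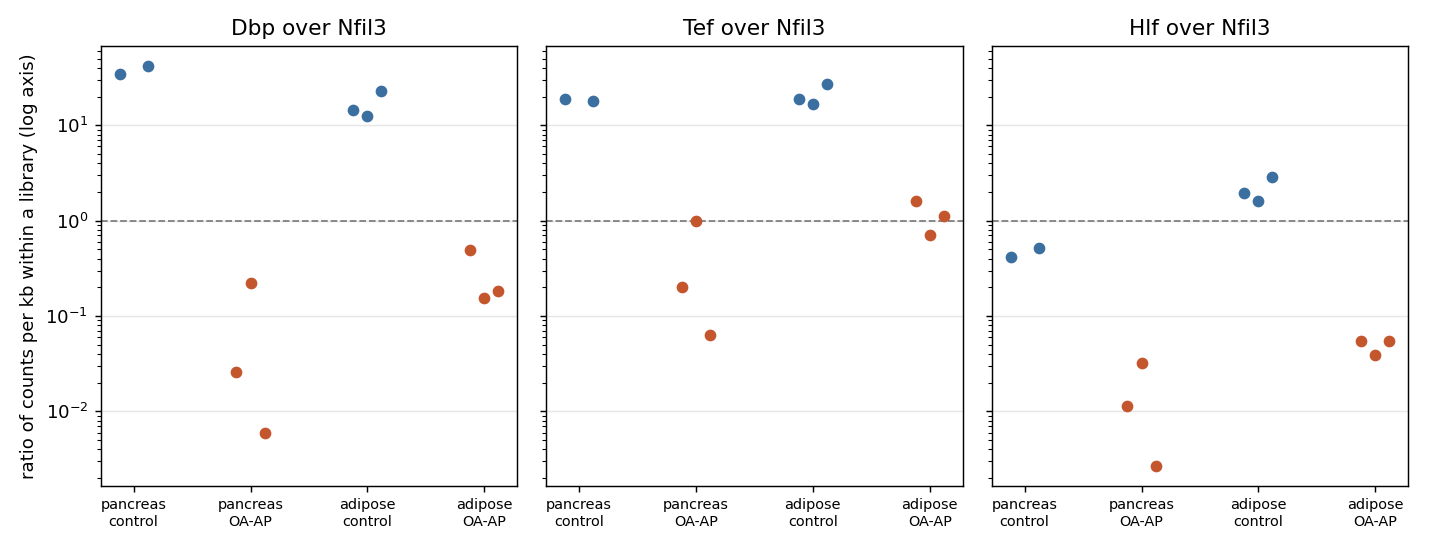
Ratio of counts per kb within each library (log axis) of Dbp, Tef and Hlf to Nfil3; points are libraries, blue for control and orange for OA-AP, and the dashed line marks equal levels. Dbp over Nfil3 is 12.5 or more in each control library and 0.487 or less in each OA-AP library.

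The make-up of the PAR bZIP group also differed. Per length, Dbp made up 64.2% and 69.2% of the summed activators in control pancreas and 10.7%, 18.0% and 8.40% in OA-AP pancreas. In adipose tissue its share was 40.6% to 43.3% in the controls and 13.5% to 22.8% in OA-AP mice. Tef held most of the rest, at 29.9% to 35.0% against 79.4% to 87.8% in the pancreas and 51.3% to 54.1% against 74.6% to 82.5% in adipose tissue. Hlf made up 0.783% to 0.851% in control pancreas and 5.28% to 5.53% in control adipose tissue. Among the bHLH repressors, Bhlhe40 was 1.80 and 3.19 times Bhlhe41 per length in control pancreas and 11.4 to 26.2 times in OA-AP pancreas. In adipose tissue the ratio was 1.43 to 1.72 in the controls and 5.35 to 14.7 in OA-AP mice.

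**Figure D4:**
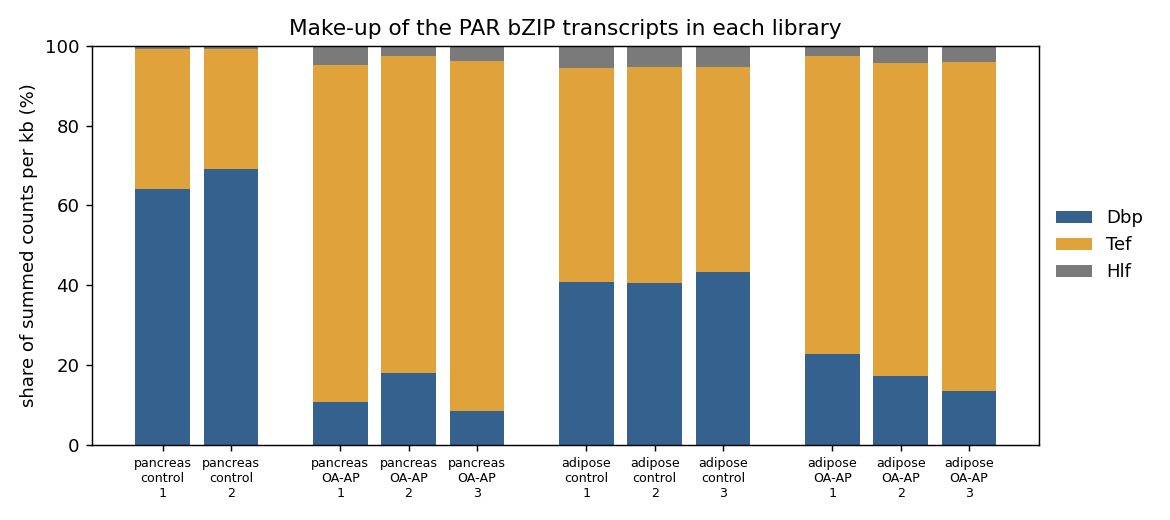
Share (%) of Dbp, Tef and Hlf in their summed counts per kb, 1 bar per library. Dbp fills 64.2% and 69.2% of the control pancreas bars and at most 18.0% of the OA-AP pancreas bars.

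Levels per kb of gene length gave a different order in each group. In control pancreas Dbp led at 16.1 CPM per kb, followed by Tef at 7.62, both apart from all others, and Hlf was lowest at 0.197. In OA-AP pancreas Nfil3 at 6.28 and Bhlhe40 at 3.53 CPM per kb led and overlapped, Tef followed at 1.35, and Dbp at 0.243 overlapped Ciart, Bhlhe41 and Hlf. In control adipose tissue Tef at 32.5 and Dbp at 25.6 CPM per kb led and overlapped, and Nfil3 was lowest at 1.60. In OA-AP adipose tissue Tef at 14.2, Bhlhe40 at 14.1 and Nfil3 at 13.4 CPM per kb could not be ordered beyond their spread, and Dbp followed at 3.37.

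The libraries of OA-AP pancreas were not alike. Replicate 2 held the highest level of Dbp, Tef, Hlf, Ciart and Bhlhe41 and the lowest of Nfil3. Replicate 3 held the highest Nfil3 and Bhlhe40 and the lowest Dbp, Tef, Hlf and Ciart. In OA-AP adipose tissue replicate 1 was highest for Dbp, Tef, Ciart, Bhlhe40 and Bhlhe41, and replicate 3 lowest for Dbp, Tef, Ciart and Bhlhe41. The spread of Dbp was 7.66-fold between the OA-AP pancreas libraries and 1.78-fold between the controls.

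The tissue by condition term asked whether a change differed between the tissues, over 17046 genes and all 11 libraries. It is built on the contrasts by which the genes were chosen and is given as a description. Dbp was 3.14 ± 0.77 (SE) log2 units further down in the pancreas than in adipose tissue, and it was the 1 member of 7 with an adjusted p under 0.05, against 21.3% of all genes (10.8% in that direction). That call was lost without control pancreas replicate 2, where the difference was −2.68. The differences of the other 6 were −1.29 ± 0.52 for Tef, 0.54 ± 0.50 for Hlf, 0.88 ± 0.96 for Nfil3, −0.53 ± 0.61 for Ciart, 0.73 ± 0.61 for Bhlhe40 and 0.57 ± 0.48 for Bhlhe41 (SE), and none of them was called. Without OA-AP pancreas replicate 2 the difference of Dbp was −4.42 and that of Tef −1.95, which was then called. Tef was also called with the replicate block, at −1.09. With library totals Hlf at 1.40 and Bhlhe41 at 1.44 were called as well, and Ciart turned to 0.36.

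The control libraries of the tissues were also compared with each other, without OA-AP mice. Tissue and any batch of the libraries cannot be told apart in this comparison. The same control libraries entered the contrasts by which the members were chosen. The adjusted p-values of this comparison are therefore no independent test. Here CPM were scaled over all 11 libraries. Dbp was at 73.2 and 127.9 CPM in control pancreas and at 43.2, 32.4 and 46.8 CPM in control adipose tissue. Both pancreas values were higher, with a log2 difference of 1.31 ± 0.26 (SE) and an adjusted p of 0.00552 (edgeR quasi-likelihood, Benjamini-Hochberg over 16431 genes). Ciart was also higher in the pancreas, at 6.34 and 11.8 CPM against 4.6, 2.30 and 3.34 CPM (log2 difference 1.41 ± 0.37 SE, adjusted p = 0.0125 in edgeR), and the call was lost without pancreas replicate 2.

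Hlf, Bhlhe40 and Bhlhe41 were lower in control pancreas. Hlf was at 1.99 and 3.51 CPM in the pancreas and at 13.0, 9.41 and 13.0 CPM in adipose tissue (log2 difference −2.11 ± 0.30 SE, adjusted p = 0.00046 in edgeR). Bhlhe41 differed by −1.25 ± 0.24 (SE, adjusted p = 0.00222 in edgeR) and Bhlhe40 by −0.72 ± 0.12 (SE, adjusted p = 0.00122 in edgeR), with no overlap between tissues. Tef overlapped between the tissues at 104.9 and 145.5 CPM against 148.6, 113.5 and 145.9 CPM (log2 difference −0.11 ± 0.17 SE, adjusted p = 0.596 in edgeR). Nfil3 overlapped as well, with a log2 difference of 0.03 ± 0.38 (SE, adjusted p = 0.954 in edgeR).

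Thus 5 of 7 members were called between control tissues, 2 higher and 3 lower in the pancreas, where 57.6% of all genes were called (26.3% higher and 31.3% lower). The tissues did not overlap for 5 of the members, against 81.1% of all genes tested. The scaling carries weight here. With library totals alone the median log2 difference of all genes moved from −0.22 to −2.69 and 6.86% of calls were higher in the pancreas, against 45.6% with TMM. All 7 members were then called lower in the pancreas and 0 higher. Dbp turned to −1.19, Ciart to −1.09 and Nfil3 to −2.44, and Tef moved to −2.60, all above that median.

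Over the 4 groups on this common scale, Dbp ran from control pancreas at 100.5 ± 38.7 CPM (SD, n = 2) and control adipose tissue at 40.8 ± 7.47 CPM (SD, n = 3) to OA-AP adipose tissue at 5.41 ± 2.68 CPM (SD, n = 3) and OA-AP pancreas at 1.54 ± 1.62 CPM (SD, n = 3). The 2 OA-AP groups of Dbp overlapped. Nfil3 was at 27.1 ± 20.8 CPM (SD, n = 3) in OA-AP pancreas and 14.6 ± 4.78 CPM (SD, n = 3) in OA-AP adipose tissue, which overlapped, above 1.76 ± 0.44 CPM (SD, n = 2) in control pancreas and 1.73 ± 0.33 CPM (SD, n = 3) in control adipose tissue, which overlapped as well. Bhlhe41 was highest in control adipose tissue at 21.4 ± 1.17 CPM (SD, n = 3), apart from the other 3 groups.

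Some reads of the members may belong to neighbours, as the strand setting of the counting is not given. Dbp shares 539 of its 2993 exon bases (18.0%) with Sphk2, a sphingosine kinase gene on the opposite strand. Sphk2 had 150 to 198 counts in control pancreas and 372 to 476 in OA-AP pancreas, and 534 to 681 and 589 to 604 counts in adipose tissue. These are raw counts, not scaled for the libraries. With TMM the log2 fold change of Sphk2 was 0.52 ± 0.16 (SE, adjusted p = 0.0439 in edgeR) in the pancreas. In adipose tissue it was 0.41 ± 0.11 (SE, adjusted p = 0.0241 in edgeR), and Sphk2 was called in neither tissue. Bhlhe41 shares 1280 exon bases with Gm43909, which had at most 1 count in any pancreas library. Tef and Bhlhe40 share 193 and 118 exon bases with antisense genes, and Hlf, Nfil3 and Ciart share none.

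The other genes of the clock were taken from 6 lists, chosen with earlier results of these data known. Counts and adjusted p-values of their 28 genes are thus descriptions and no independent test. In the pancreas 23 passed the filter and 14 of them were called by edgeR, 7 higher and 7 lower, with a median log2 fold change of 0.0043 and against 29.8% called among all genes. In adipose tissue 24 passed and 4 were called, 1 higher and 3 lower, with a median of −0.0063 and against 25.1% among all genes. With library totals 11 were called higher and 2 lower in the pancreas, since the calls of Arntl2, Per2, Nr1d1, Nr1d2 and Pdxk were lost and Clock, Cry2, Rora and Wee1 were called higher. Without pancreas control replicate 2, which leaves 1 control, fewer were called in the pancreas, as among all genes tested. Without OA-AP adipose replicate 2 the adipose count was 9.

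Among the core activators Arntl, the partner of CLOCK, was higher in OA-AP pancreas, opposite to Dbp and Ciart. Arntl was at 1.97 and 0.997 CPM in the controls and at 19.6, 11.1 and 18.6 CPM in OA-AP mice, all above the controls (log2 fold change 3.44 ± 0.38 SE, adjusted p = 0.00074 in edgeR). Without control replicate 1 it was 4.04. Npas2, which can stand in for CLOCK, had 3 and 0 counts in the controls and 85, 34 and 101 in OA-AP pancreas. Arntl2, a paralog of Arntl, was lower (log2 fold change −1.28 ± 0.21 SE, adjusted p = 0.00322 in edgeR), a call lost without control replicate 2 and with library totals. In adipose tissue 0 of the 4 activators were called by edgeR or DESeq2 and 1 had an unadjusted p under 0.05, and Arntl had a log2 fold change of 0.68 ± 0.33 (SE, adjusted p = 0.142).

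Among the core repressors Per3 was lower in both tissues, at a log2 fold change of −3.85 ± 0.46 (SE, adjusted p = 0.00132 in edgeR) in the pancreas and −1.64 ± 0.17 (SE, adjusted p = 0.000968 in edgeR) in adipose tissue. Cry1 was higher in both, by 1.20 ± 0.30 (SE, adjusted p = 0.0183 in edgeR) and 1.21 ± 0.11 (SE, adjusted p = 0.000562 in edgeR). Per2 was lower in the pancreas (−1.65 ± 0.45 SE, adjusted p = 0.0325 in edgeR). The calls of Per2 and Cry1 in the pancreas were lost without either control library or without OA-AP replicate 1, and that of Per2 also with library totals.

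The REV-ERB genes Nr1d1 and Nr1d2, which encode repressors that act on ROR elements, were lower in both tissues. Nr1d1 was at 40.9 and 36.3 CPM against 17.0, 22.8 and 19.6 CPM in the pancreas (log2 fold change −0.96 ± 0.16 SE, adjusted p = 0.00322 in edgeR). In adipose tissue it was at 452, 395 and 452 CPM against 228, 135 and 108 CPM, below every control (log2 fold change −1.46 ± 0.27 SE, adjusted p = 0.00692 in edgeR). Nr1d2 changed by −0.91 ± 0.21 (SE, adjusted p = 0.0126 in edgeR) and −1.42 ± 0.18 (SE, adjusted p = 0.00185 in edgeR). Both pancreas calls were lost with library totals, at −0.26 for Nr1d1 and −0.18 for Nr1d2, and that of Nr1d2 also without control replicate 2. Rorb, an activator on the same elements, was at 0 in the pancreas. Rora, another such activator, was present there at means of 20.2 CPM in control and 21.0 CPM in OA-AP mice. It was called in neither tissue, with log2 fold changes of 0.06 ± 0.18 (SE) in the pancreas and −0.09 ± 0.12 (SE) in adipose tissue.

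The clock kinases Csnk1d and Csnk1e, which phosphorylate PER proteins, were higher in OA-AP pancreas, by 1.37 ± 0.13 (SE, adjusted p = 0.000373 in edgeR) and 1.60 ± 0.18 (SE, adjusted p = 0.000717 in edgeR). Of the 3 E-box output genes Usp2, a deubiquitinase, was lower in the pancreas (−2.48 ± 0.25 SE, adjusted p = 0.000412 in edgeR). It was at 15.6 and 27.4 CPM in the controls and 4.15, 3.72 and 3.66 CPM in OA-AP mice, without overlap. In adipose tissue 0 of 4 kinases and ligases and 0 of 3 E-box output genes were called by edgeR or DESeq2, with 2 and 0 at an unadjusted p under 0.05.

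Of the 8 genes listed as PAR bZIP targets 5 passed the filter in the pancreas, of which Por and Cyp2b10 were called higher and Pdxk lower. Por, the reductase that feeds electrons to cytochrome P450 enzymes, was at 8.15 and 9.87 CPM in the controls and at 632, 531 and 767 CPM in OA-AP mice (log2 fold change 6.16 ± 0.25 SE, adjusted p = 1.73e-05 in edgeR). Cyp2b10, a P450 enzyme, had 0 counts in both controls and 848, 384 and 2199 in OA-AP mice, at least 217-fold higher against a floor of 3 counts per library. Without OA-AP replicate 3 the bound was 119-fold, and the call was lost without a filter or without either control. That floor covers counting error only. Pdxk, which makes the active form of vitamin B6, was lower (−1.39 ± 0.32 SE, adjusted p = 0.0136 in edgeR), a call lost with library totals or without either control. In adipose tissue 0 of the 5 tested were called by edgeR, 2 had an unadjusted p under 0.05, and DESeq2 called Ppara, a lipid-sensing nuclear receptor, lower. Nr1i3, Cyp2a4 and Cyp2a5 were at 0 in the pancreas, and Cyp2a4 and Cyp2a5 also in adipose tissue.

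**Figure D5:**
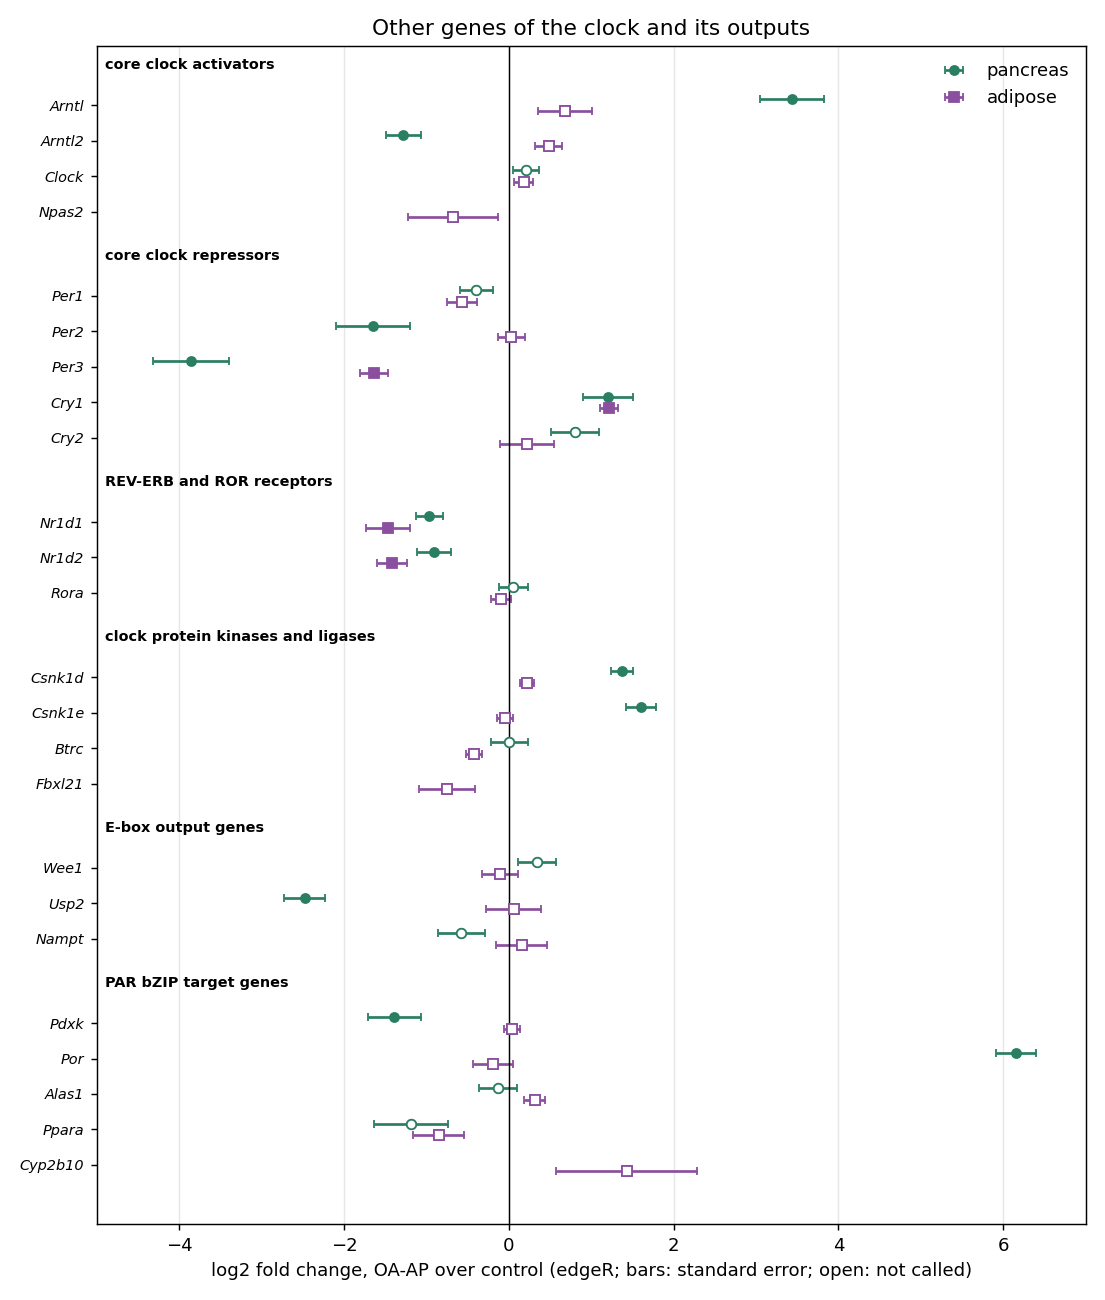
Log2 fold change of OA-AP over control, with standard errors, for the clock genes tested in pancreas (circles) and adipose tissue (squares), grouped by list; open symbols were not called, and genes with at most 3 counts in each control library of a tissue are left out there. Per3 lies below 0 and Cry1 above 0 in both tissues, while Por reaches 6.16 in the pancreas and lies at −0.19 in adipose tissue.

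Genes with a pattern most like each member were sought among the 17046 genes of the 11-library fit. Likeness was the root mean square difference of log2 CPM, each gene set to 0 at its control mean in each tissue, with smaller values for closer patterns. Nearest to Dbp were Palm3 at 1.08, Adamts16 at 1.28 and Lgals12 at 1.35. For the others it was 8430422M14Rik for Tef at 0.26, Dmrtc1a for Hlf at 0.32, Bcl3 for Nfil3 at 0.46, Fam117a for Ciart at 0.29 and Bcor for Bhlhe40 at 0.32. Nearest to Bhlhe41 was another member, Hlf, at 0.36. On this scale Dbp lay at −6.39 in the pancreas and −2.99 in adipose tissue, and Palm3 at −6.32 and −1.41. Bcl3, which encodes an atypical inhibitor of NF-κB, lay at 3.70 and 3.03, beside 3.62 and 3.0 for Nfil3. The 11 libraries share their controls and scaling, and the values are descriptions.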

How the data were processed

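Per the labels and the study's methods, the authors trimmed paired-end reads with Trim Galore 0.6.6, checked them with fastp 0.20.1, aligned them to GRCm38 by STAR and used featureCounts 2.0.1 for gene counts. The deposited tables give these counts as whole numbers, 1 column per sample, not normalized. The annotation release and the strand setting are not given in the sources used here. Values per kb use the gene length that the authors list beside the pancreas counts.

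Counts of each tissue were filtered with filterByExpr, scaled with TMM and tested apart with edgeR 4.0.16 (quasi-likelihood, robust) in R 4.3.3, with Benjamini-Hochberg adjustment over all genes tested. A gene was called when its adjusted p was below 0.05 with a change of 1.5-fold or more, and in the tissue by condition term at the adjusted p alone. The SE was derived from the F statistic, as the absolute log2 fold change over its square root. Control tissues were compared over the genes in both tables. Log2 CPM for likeness used a prior count of 2. The members and the gene lists were chosen with earlier results of these data known. Named were all members, up to 3 called genes with the smallest p per clock list and tissue, listed genes at 0, the 3 genes nearest to Dbp and the 1 nearest to each other member. Replicates of a group differed by more than counting noise, with a chi-square per degree of freedom of at least 6.91. Alternatives were DESeq2 1.42.0, other scaling, other filters, fold thresholds of 2 or none, each library left out and a replicate block. Some genes of the clock lists are not reported here and are left out of the list counts. The scripts were tested on simulated data.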

Additional observations from a re-analysis of the deposited data

Results flagged for a closer look

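The change under OA-AP differed between tissues for Dbp and for 9 other clock genes, by the tissue by condition term of edgeR's quasi-likelihood test with all 11 libraries. Values are the log2 fold change in the pancreas minus that in adipose tissue. For Dbp the difference was −3.14, given as a description because the gene was chosen by these contrasts, and −4.42 without OA-AP pancreas replicate 2. The clock lists were chosen with earlier results of these data known, so their values are descriptions too. Of the 24 clock genes tested 11 had an adjusted p under 0.05, against 21.3% of all genes, 6 higher and 5 lower in the pancreas. Of these, 2 genes, Npas2 and Cyp2b10, had a control group at the floor. Among activators and repressors of the loop the difference was 2.76 for Arntl (3.37 without pancreas control replicate 1), −1.75 for Arntl2, −1.67 for Per2 and −2.21 for Per3. The kinases differed by 1.16 for Csnk1d and 1.66 for Csnk1e. Output genes differed by −2.52 for Usp2, −1.42 for Pdxk and 6.37 for Por. The difference kept its direction and its adjusted p under 0.05 in 18 of 18 alternative settings for Arntl2, Csnk1d, Csnk1e, Usp2 and Por. It lost the adjusted p without pancreas control replicate 2 for Dbp, Arntl, Per3 and Per2, and with library totals for Pdxk. Dbp also lost it without a filter, and Per2 in 8 of 18 settings in all. No group held more than 3 libraries, so single libraries were not tested as outliers within a group.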

How the results depend on the processing

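Depth limited the members with few counts in the pancreas, which were Hlf with 4 to 17 counts, Nfil3 with 8 to 10 in the controls, and Dbp with 4 to 28 and Ciart with 9 to 25 in OA-AP mice. In the pancreas 7 members were called, 6 with DESeq2, 5 with library totals and 5 without a filter. With the filter of 10 counts in every library 3 were called, where only 3 were tested. With 1 OA-AP library left out 5 to 7 members were called, and 12 to 15 clock genes, against 14 with all libraries. With 1 control left out, which leaves a group of 1 library, fewer members and clock genes were called, as among all genes tested. In adipose tissue 6 members were called, 6 to 7 with 1 library left out, and 4 clock genes, 4 to 9 with 1 library left out. In the tissue by condition term 1 member was called, 3 with library totals, 0 without a filter, 0 with the filter of 10 counts and 0 to 2 with 1 library left out. Between control tissues 5 members were called, 7 with library totals and 4 to 5 with 1 library left out.

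The direction of Ciart in the tissue by condition term turned to 0.36 with library totals. Between control tissues Dbp turned to −1.19, Ciart to −1.09 and Nfil3 to −2.44 with library totals, where the median of all genes was −2.69. Tef turned to 0.080 without pancreas control replicate 1, in a range of −0.39 to 0.080 with 1 library left out. Nfil3, near 0, turned to −0.0078 with DESeq2, −0.12 without a filter, −0.11 with the block, −0.26 without pancreas control replicate 2 and −0.09 without adipose control replicate 3, in a range of −0.26 to 0.24 with 1 library left out. No member changed direction in OA-AP against control mice in either tissue.

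The replicate numbers were tried as a block, although the labels do not say that they mark a shared mouse, batch or day. Correlations of the deviations of same-numbered samples were 0.0035 and −0.028 in the pancreas and 0.022, 0.021 and −0.16 in adipose tissue, and between tissues −0.011 and 0.0089 in the controls and −0.012, 0.050 and 0.090 in OA-AP mice. With the replicate block 6 members and 14 clock genes were called in the pancreas, 6 and 5 in adipose tissue, 2 members in the tissue by condition term and 5 between control tissues. OA-AP pancreas replicate 3 has no control of the same number, so with the block it adds nothing to the estimated change. The log2 fold change of Nfil3 in the pancreas was 3.11 with the block and 3.07 without that library. The causes of these differences were not tested.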
